A study of Brassica rapa with 9 samples.

Results

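A set of 10 Brassica rapa genes was abundant on average in Kimchi cabbage seedlings carrying the G564E form of Arabidopsis phytochrome B. The set was expressed at a low to moderate level in plants carrying the unmodified receptor and in non-transgenic plants. The genes were chosen from the 41020 gene IDs of the count files by their normalised read count N, the raw count divided by a size factor per library. A member needed a mean N of 2000 or more over the 3 G564E libraries, a lowest G564E value at least 4 times the highest of the 6 AtPHYB and NT libraries, and a value above 10 in that highest library. Of the 1314 genes that reached the mean, 10 met the other conditions: Bra020322, Bra028091, Bra020470, Bra009221, Bra008025, Bra012767, Bra023122, Bra022587, Bra038521 and Bra033331. The limit of 2000 applied to the mean and not to each library. In G564E replicate 1 only Bra028091 and Bra023122 reached it, and in replicate 2 all members but Bra008025. The rule used the difference between G564E and the other genotypes, so that difference is described below and not tested.

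Phytochrome B is the main red light receptor of light-grown plants. Red light turns it into an active form that enters the nucleus, binds the PIF transcription factors and leads to their breakdown, and far-red light or darkness returns it to the inactive form. In Arabidopsis, glutamate in place of glycine at residue 564 is known from a gain-of-function allele whose active form persists. No name or function could be given to any of the 10 IDs, since none of them matched the RefSeq gene table of Brassica rapa used here, and they are therefore described by their values alone.

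RNA was taken from whole 2-week-old seedlings of the cultivar Chiifu, kept without heat treatment under a regime labelled LD, on MS salts with 0.5% sucrose. The 3 genotypes, with 3 libraries each, were plants with Arabidopsis phytochrome B carrying the G564E change (G564E), plants with the unmodified Arabidopsis receptor (AtPHYB) and non-transgenic plants labelled wild-type (NT). The promoter of the transgenes and the number of lines, plants or pools behind the libraries are not given in the labels, and the p-values below reflect no more than the scatter among the 9 libraries, part of which may be technical. In whole seedlings, a change in the share of a cell type and a change in RNA per cell cannot be told apart.

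Libraries held 15262884 to 20998541 counts. Within the G564E genotype, replicate 1 stood apart: over all genes its log2 values correlated at 0.957 with both other replicates, which correlated with each other at 0.988, against 0.975 to 0.987 within AtPHYB and NT. The number of genes that met the rule depended on this library. Without it 53 genes met the conditions, the 10 members among them. Without G564E replicate 3 the number was 7, with Bra008025, Bra022587 and Bra038521 lost because their mean N fell below 2000. Without any one of the other 7 libraries all 10 members were kept, and the number was 10 to 14. Without gene names, neither the introduced gene nor markers of seedling tissue could be looked up, and the genotype and tissue labels were not checked.

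**Figure D1:**
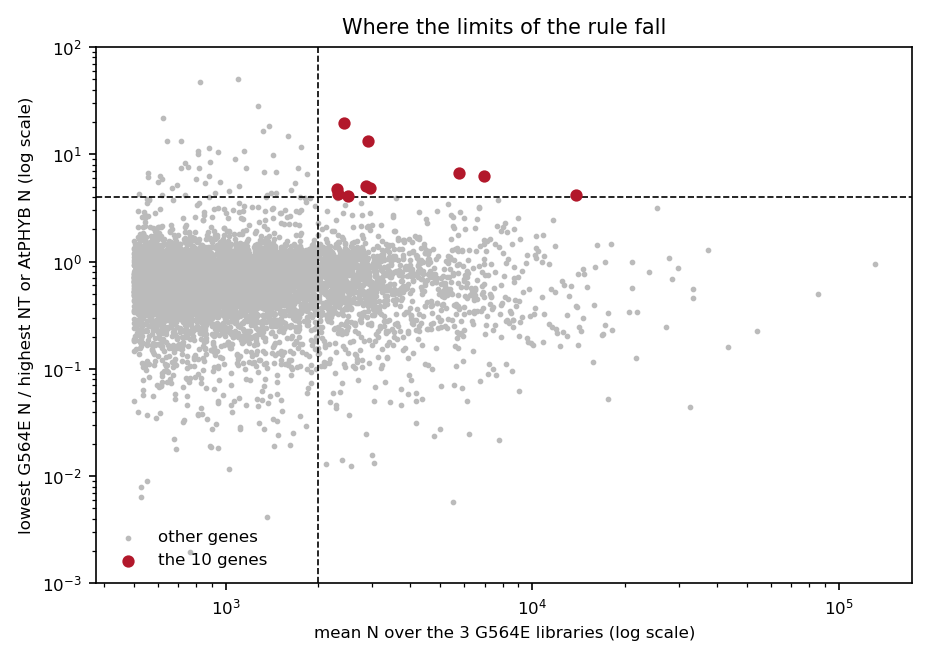
Each point is 1 of 8024 genes with a mean N of 500 or more in G564E and a value above 10 in at least 1 AtPHYB or NT library. The x axis gives the mean N over the 3 G564E libraries and the y axis the lowest G564E value over the highest AtPHYB or NT value, both on log scales, and the dashed lines mark the limits of 2000 and 4. The 10 members (red) lie in the upper right field, 8 of them at ratios of 4.12 to 6.70 and 2 at 13.4 and 19.8.

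The members took 0.102%, 0.271% and 0.490% of all counts in G564E replicates 1, 2 and 3, against 0.00796%, 0.00579% and 0.0101% in the AtPHYB libraries and 0.00924%, 0.00568% and 0.00827% in the NT libraries. The mean share was 0.287 ± 0.195% in G564E, 0.00795 ± 0.00216% in AtPHYB and 0.00773 ± 0.00184% in NT (SD, n = 3 each). A single gene, Bra020322, made up 2.14%, 14.4% and 45.9% of the members' reads in G564E replicates 1, 2 and 3, or 0.00217%, 0.0389% and 0.225% of all counts. It held most of the difference in share between replicates 2 and 3, but little of that between replicates 1 and 2.

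The members fell into classes by the highest value they reached outside G564E. A total of 3 lay at or below an N of 100 there (Bra020322, Bra008025 and Bra022587), 6 between 100 and 500, and 1, Bra023122, above 500. Because every member had to reach the same mean in G564E, a low value outside it goes with a large fold by construction. Normalised counts grow with transcript length, which was not used here. Folds and ratios compare libraries of the same gene. Classes, limits and ranges of N over several genes depend in part on length.

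Bra022587 had the clearest separation. Its N was 518, 3143 and 3616 in G564E replicates 1, 2 and 3, against 6.08, 15.1 and 8.33 in the AtPHYB libraries and 26.2, 13.5 and 23.7 in the NT libraries. The lowest G564E library was 19.8 times the highest of the others, the largest such ratio in the set, and the G564E mean was 247 times the AtPHYB mean and 115 times the NT mean. The values outside G564E rest on 6 to 12 reads per AtPHYB library and 15 to 24 reads per NT library, so these folds carry a wide counting error.

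Bra008025 was also near its floor outside G564E. Its N was 977, 596 and 7148 in the G564E libraries, against 44.6, 37.7 and 33.3 in AtPHYB and 16.4, 12.6 and 8.88 in NT. The G564E replicates were uneven, with replicate 3 at 12.0 times replicate 2, and the lowest of them was 13.4 times the highest library outside G564E. With replicate 3 left out the G564E mean was 787, against 2907 with all 3 libraries.

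Bra020322 had the widest spread of the set. It stood at 321, 6156 and 35286 in G564E replicates 1, 2 and 3, against 75.0, 41.5 and 33.3 in AtPHYB and 62.3, 34.2 and 76.9 in NT. The mean of 13921 in G564E therefore describes none of the 3 libraries, and its SD was 18731. Replicate 1 was 4.18 times the highest value outside the genotype, just past the limit, while replicate 3 was 611 times the NT mean. Its mean without replicate 3 was 3239, and only 2 of the other 1304 genes with a G564E mean of 2000 or more had as large a ratio between the highest and the lowest G564E library.

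Bra020470 belonged with these by its behaviour in G564E, although its values outside were higher. It had an N of 1274, 5962 and 10097 in the G564E libraries, against 163, 190 and 186 in AtPHYB and 66.6, 111 and 25.6 in NT. Replicate 1 was again the lowest, and replicate 3 was 7.93 times as high. The G564E mean was 32.1 times the AtPHYB mean and 85.1 times the NT mean, and the AtPHYB libraries lay above the NT libraries without overlap.

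The remaining 6 members were more even in G564E and differed less from NT. Bra028091 collected 3057, 11203 and 6535 in the G564E libraries, against 76.0, 78.0 and 299 in AtPHYB and 387, 175 and 483 in NT. Its G564E mean was 45.9 times the AtPHYB mean and 19.9 times the NT mean, and AtPHYB replicate 3 overlapped the NT range while the other AtPHYB libraries lay below it. Bra009221 gave 1576, 4521 and 2749 in G564E, against 37.5, 32.7 and 87.5 in AtPHYB and 325, 80.9 and 180 in NT. It had the order of libraries seen for Bra028091 in G564E, with replicate 2 highest and replicate 1 lowest, and in AtPHYB again replicate 3 was the highest.

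Bra012767 stood at 1698, 4172 and 2732 in G564E, against 336, 150 and 283 in AtPHYB and 206, 263 and 204 in NT. The AtPHYB libraries of this gene lay on both sides of the NT libraries, and the G564E mean was 11.2 times the AtPHYB mean and 12.8 times the NT mean. Bra033331 had 1577, 2851 and 2483 in G564E, against 243, 138 and 332 in AtPHYB and 128, 127 and 169 in NT. Its G564E mean was 9.68 times the AtPHYB mean and 16.3 times the NT mean. At a mean of 2304 it was the member closest to the limit of 2000; the nearest gene outside, Bra004645, had a mean of 1845 and otherwise met the rule, with 793, 2621 and 2121 in the G564E libraries, against a highest value of 121 elsewhere.

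Bra038521 had 1740, 2184 and 3062 in G564E, against 130, 153 and 289 in AtPHYB and 404, 125 and 243 in NT. Its G564E mean was 9.05 times the NT mean, the smallest such fold among the members, and all 3 AtPHYB libraries lay within the range of the NT libraries. Bra023122 had the smallest ratio between its highest and lowest G564E library. Its N was 2307, 2101 and 3091 in G564E, against 445, 464 and 510 in AtPHYB and 119, 129 and 227 in NT, so the genotypes formed 3 steps with no overlap between any of them. The G564E mean was 5.28 times the AtPHYB mean and 15.8 times the NT mean, and its ratio of 4.12 between the lowest G564E library and the highest other was the closest to the limit. Just outside that limit was Bra036936 at a ratio of 3.89, with 1483, 5228 and 4045 in G564E and a highest value of 381 in NT replicate 1. At the remaining limit no gene lay outside: every gene that met the other conditions had a value above 10 in some AtPHYB or NT library.

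**Figure D2:**
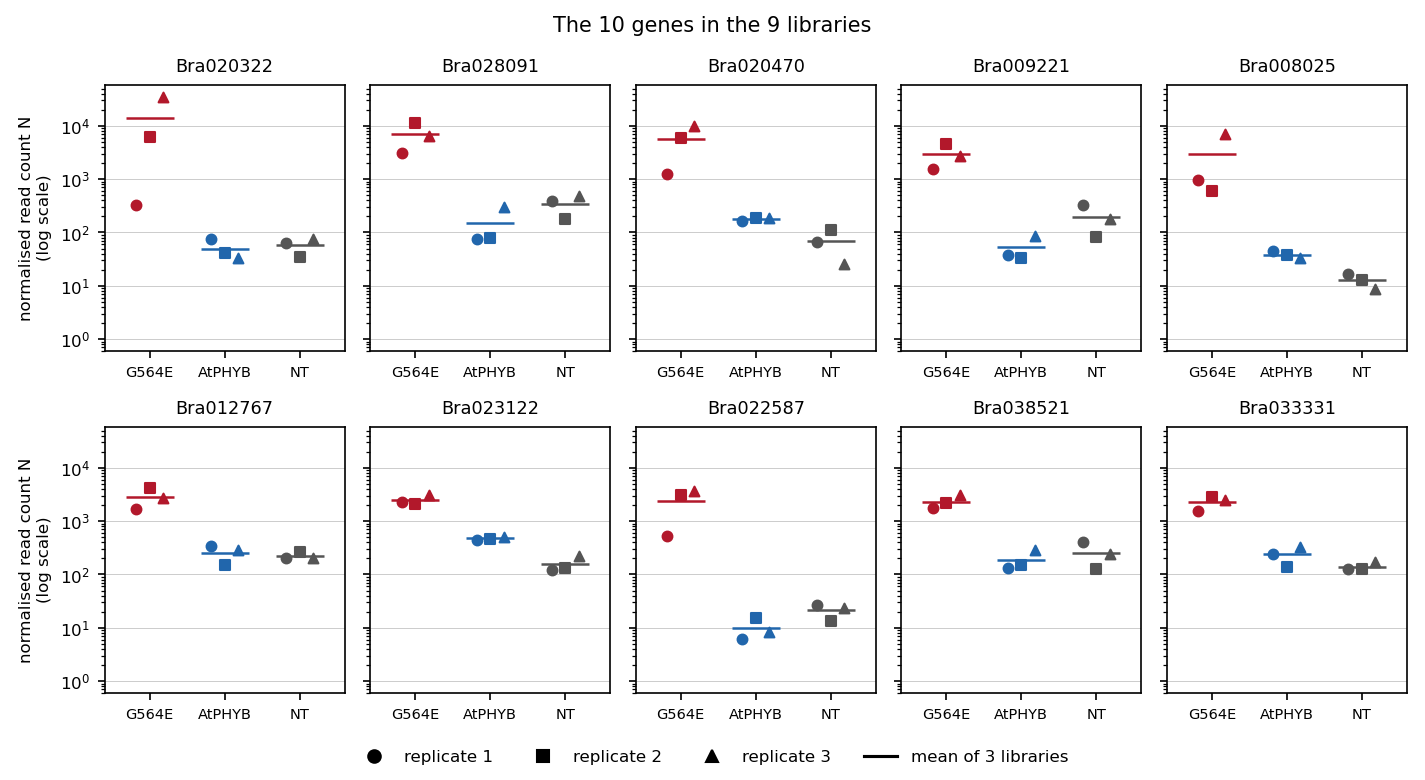
Normalised read count N of each member in the 9 libraries, on a shared log axis, with G564E in red, AtPHYB in blue and NT in grey. Symbols give the replicate number and lines the mean of 3 libraries. Bra020322 spans 321 to 35286 within G564E, whereas Bra023122 spans 2101 to 3091.

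The members varied unevenly among the G564E libraries. The highest G564E library exceeded the lowest by a median of 3.27 times over the members, with a range of 1.47 for Bra023122 to 110 for Bra020322, against a median of 1.58 over the other 1304 genes with a G564E mean of 2000 or more. In 7 of the 10 members the ratio was at least 2, against 29.4% of the other genes. These ratios come from G564E values that the rule used. A gene low elsewhere can reach the mean limit through a single high library, as Bra008025 did with replicate 3. Nothing is therefore read from this difference. The members also varied more outside G564E, with median ratios of 2.25 in AtPHYB and 2.10 in NT, against 1.25 and 1.27 for the other genes. The members also had fewer reads there by their choice, with a median of their mean N of 165 in AtPHYB and 150 in NT, against 3135 and 3049 for the other genes, and counting error is larger at low counts. Its part in the difference was not tested.

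G564E replicate 1 was the lowest of its genotype in 8 of the 10 members, and replicate 2 in Bra008025 and Bra023122. Among the other genes replicate 1 was the lowest in 53.9%. No member had its highest G564E value in replicate 1, against 38.1% of the other genes; replicate 3 was the highest in 6 members and replicate 2 in 4. The median log2 ratio of replicate 1 to the mean of replicates 2 and 3 was -1.37 over the members, with Bra020322 at -6.01 and Bra023122 at -0.17. Replicate 1 was also the G564E library that stood apart over all genes, and the part of this in the members' spread was not tested.

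The members can be described in 2 groups by their spread in G564E, a grouping made after the values were seen. Spread and size of difference are both computed from the G564E values that the rule used: a high top library raises both, and a wide spread passes the limit of 4 more easily where values outside G564E are low. Their going together is therefore largely built in, and nothing is read from it. Bra020322, Bra020470, Bra008025 and Bra022587 had ratios of 6.98 to 110 between the highest and the lowest G564E library and G564E means 85.1 to 241 times the NT mean. The other 6 had ratios of 1.47 to 3.66 and G564E means 9.05 to 19.9 times the NT mean. Their NT means did not overlap either, at 12.6 to 67.9 in the first group and 141 to 348 in the second. The AtPHYB means of the groups did overlap, at 9.84 to 180 in the first and 52.6 to 473 in the second. So did the folds of the G564E mean over the AtPHYB mean, at 32.1 to 279 and 5.28 to 56.1. In the first group replicate 3 was the highest G564E library for all 4 genes. In the second it was replicate 2 for Bra028091, Bra009221, Bra012767 and Bra033331, and replicate 3 for Bra023122 and Bra038521.

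**Figure D3:**
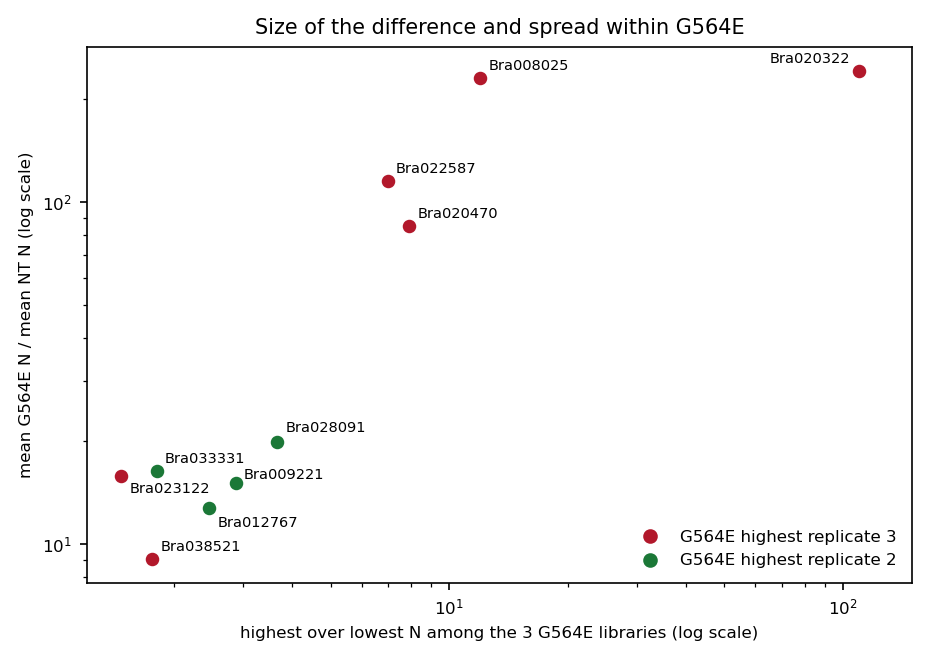
Each point is a member. The x axis gives the highest over the lowest N among the 3 G564E libraries and the y axis the mean G564E N over the mean NT N, both on log scales, and the colour shows which G564E library was highest. The 4 genes with a G564E mean at least 85.1 times the NT mean are those with a spread of 6.98 or more; both axes use the same G564E values, so that much of this relation is built in.

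Outside G564E, some members shared an order of libraries, which was picked out after the members' values were seen and is given as a description. In Bra028091, Bra009221, Bra038521 and Bra033331, AtPHYB replicate 3 was the highest AtPHYB library and NT replicate 2 the lowest NT library. This order was seen in 4 of 10 members and in 7.75% of the other 1304 genes. NT replicate 2 was the lowest NT library in 6 members and in 24.6% of the other genes, and AtPHYB replicate 3 the highest AtPHYB library in 5 members and in 20.3% of the others. Over all genes, G564E and AtPHYB libraries of the same number deviated from their genotype means together, so replicate orders in these genotypes may not be independent. For AtPHYB and NT, the genotypes of the order above, these correlations were -0.12, 0.03 and 0.08. The 4 genes had different sizes of change along this order. AtPHYB replicate 3 was at 299 for Bra028091, against 76.0 and 78.0 in the other AtPHYB libraries, and at 332 for Bra033331, against 243 and 138.

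The comparison of AtPHYB with NT was the 1 contrast that the choice of members did not use, apart from the limit on the highest of these 6 libraries. It sets plants with the unmodified receptor against plants without the transgene. All 10 members passed the filter on low counts. The fit took each gene's scatter from all 9 libraries, so the G564E spread, in values the rule used, entered the members' standard errors. With the AtPHYB and NT libraries alone, that of Bra008025 went from 1.05 to 0.34 and that of Bra020322 from 1.27 to 0.42. Only that of Bra038521 rose, from 0.45 to 0.46. That fit called 1 member and 199 genes. In the fit to all 9 libraries none was called, against 53 of 27967 genes or 0.190% of all genes tested (edgeR quasi-likelihood test, 2-sided, Benjamini-Hochberg adjusted p under 0.05). Having no call there does not show that AtPHYB and NT were alike. At an unadjusted p under 0.05 there were 2 members, Bra023122 and Bra009221, against 13.6% of all genes; DESeq2 called these same 2, against 916 of the 28859 genes it gave an adjusted p, or 3.17%. Fitted log2 fold changes were above 0 for 5 members and below 0 for 5, with a median of -0.013, against -0.0049 over all genes. The median size without regard to sign was 1.17 for the members and 0.26 for all genes. Scatter within a genotype widens fold changes of either sign. The members' median ratio of highest to lowest library was 2.25 in AtPHYB and 2.10 in NT. The other genes with a G564E mean of 2000 or more had 1.25 and 1.27. This ratio was not computed over all tested genes, the set whose sizes are given above. The part of scatter in the larger sizes was not tested.

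Bra023122 was nearest to a call, with a log2 fold change of 1.56 ± 0.26 (SE) in AtPHYB against NT and an adjusted p of 0.0678 (edgeR quasi-likelihood test, Benjamini-Hochberg). The AtPHYB libraries lay above the NT libraries in 3 of 3 cases, at a mean N of 473 ± 33.7, against 158 ± 59.5 in NT (SD, n = 3 each). The call depended on single libraries and on the tool: the adjusted p was 0.00523 without NT replicate 3, the highest NT library of this gene, 0.0353 without G564E replicate 1 and 0.0474 with the AtPHYB and NT libraries alone (edgeR), and 6.12e-06 in DESeq2. Over all alternatives it ranged from 6.12e-06 to 0.271.

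Bra009221 was lower in AtPHYB, with a log2 fold change of -1.89 ± 0.61 (SE) and an adjusted p of 0.250 (edgeR). Its mean N was 52.6 ± 30.3 in AtPHYB and 195 ± 123 in NT (SD, n = 3 each), and the highest AtPHYB library overlapped the lowest NT library, at 87.5 and 80.9. DESeq2 gave an adjusted p of 0.0331, and over the alternatives it ranged from that value to 0.665. Bra020470 and Bra008025 had all AtPHYB libraries above all NT libraries, as had Bra023122. Such a separation was found in 3 of 10 members in this direction and in none in the other, against 14.0% and 12.7% of all genes. The log2 fold changes of Bra020470 and Bra008025 were 1.39 ± 0.71 and 1.60 ± 1.05 (SE), with adjusted p of 0.432 and 0.540 (edgeR). With the AtPHYB and NT libraries alone they were 1.38 ± 0.44 and 1.59 ± 0.34 (SE), with adjusted p of 0.160 and 0.0822 (edgeR).

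For the other 6 members AtPHYB and NT libraries overlapped. Bra028091 had a log2 fold change of -1.21 ± 0.66 and Bra022587 of -1.13 ± 0.88 (SE), and Bra033331 one of 0.75 ± 0.33. The values were -0.44 ± 0.45 for Bra038521, 0.19 ± 0.37 for Bra012767 and -0.21 ± 1.27 for Bra020322. Adjusted p for these 6 lay between 0.369 and 0.961 (edgeR). The values of Bra038521, Bra012767 and Bra020322 changed sign when single libraries were left out.

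**Figure D4:**
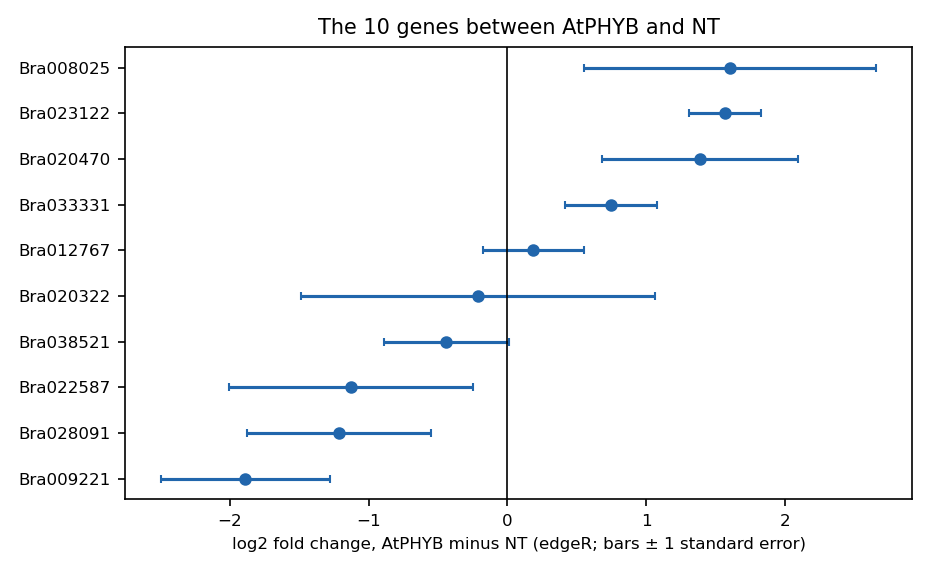
Log2 fold change of each member in AtPHYB minus NT, from an edgeR fit to all 9 libraries, with bars of 1 standard error to each side. Points right of the line are higher in AtPHYB. The members run from -1.89 for Bra009221 to 1.60 for Bra008025, with 5 on each side of 0.

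AtPHYB and G564E values of the members are set against the same NT libraries, so their folds are given side by side only. Relative to the NT mean, Bra023122 stood at 15.8 times in G564E and 2.99 times in AtPHYB, Bra008025 at 230 and 3.06 times, and Bra020470 at 85.1 and 2.65 times. Bra009221 stood at 15.1 times in G564E and 0.269 times in AtPHYB, Bra028091 at 19.9 and 0.433 times, and Bra022587 at 115 and 0.466 times. These are folds of genotype means. Single G564E libraries ran from 47.3 to 567 times the NT mean for Bra008025. For Bra020470 they ran from 18.8 to 149 times, and for Bra022587 from 24.5 to 171 times. The members' means in AtPHYB thus lay on both sides of NT, while their G564E means lay above it by the choice of the genes.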

How the data were processed

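Per the labels' protocols, total RNA of whole seedlings was treated with DNase I and made into stranded mRNA libraries for NovaSeq sequencing. The authors deposited raw counts per gene ID, 1 library per file. Per the submitters' processing notes the tools were FastQC 0.11.8, Trimmomatic 0.39, TopHat2, HTSeq and edgeR; settings, strand option, genome build and annotation are not stated there, so reads shared between duplicated gene copies could not be examined. Of 41020 IDs, 1 matched the CAAS_Brap_v3.01 table of 51589 genes, and it was no member.

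Size factors were medians of ratios to the geometric mean over the 27988 genes above 0 in all 9 libraries. Genes kept by filterByExpr (27967) were fitted with edgeR 4.0.16 (R 4.3.3): TMM scaling, 1 mean per genotype, all 9 libraries, quasi-likelihood tests, Benjamini-Hochberg adjustment over all tested genes. Standard errors are the log2 fold change over the square root of F. The fit was tested on simulated data. Alternatives used DESeq2 1.42.0, limma-voom 3.58.1, other scalings and filters, other limits, a replicate block, and single libraries left out. With 10 members, all were named, besides the nearest gene outside each limit. The members and the tests were chosen with earlier results of these data known. No pair of libraries of 1 genotype agreed within sampling noise (chi-square per degree of freedom 10.8 to 99.5). Libraries of the same replicate number deviated together between G564E and AtPHYB (correlations 0.42, 0.33 and 0.14) but not between AtPHYB and NT, the comparison tested; no label says what a number marks.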

Additional observations from a re-analysis of the deposited data

How the results depend on the processing

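All 10 members met the rule under TMM scaling and with no minimum outside G564E. By library size alone, 27 genes met it, the 10 among them; it put the median over all genes, on the log2 scale, at 0.34 for G564E minus NT (0.02 with TMM), 0.47 for G564E minus AtPHYB (0.05) and -0.11 for AtPHYB minus NT (-0.0049). Limits of 1000 and 4000 for the mean gave 32 and 3 genes, and ratios of 2 and 8 gave 54 and 2. With single libraries left out, 7 to 53 genes met the rule. The median ratio of the lowest G564E to the highest other library was 4.94, and 4.94 to 10.9 with single libraries left out, highest without G564E replicate 1.

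For AtPHYB minus NT, 0 members were called in the fit reported, 1 with AtPHYB and NT libraries alone, 2 in DESeq2 and 0 to 1 with single libraries left out. Over all genes the count of 53 became 199, 916 and 6 to 783 under these settings, and 6 at an adjusted p under 0.01. It was 783 without NT replicate 3, 343 without G564E replicate 1, and 6 to 28 without any other single library. The share of all genes called thus depended on these libraries. Replicate numbers did not pair AtPHYB with NT libraries (correlations of deviations -0.12, 0.03 and 0.08); with the replicate block 0 members and 17 genes were called. Of 160 recomputed fold changes of members, 5 changed sign, none of them called: Bra020322 at 0.016 with the replicate block, and 1 or 2 of each gene's values with single libraries left out, which ran from -0.64 to 0.055 for Bra020322, from -0.065 to 0.46 for Bra012767 and from -0.87 to 0.043 for Bra038521. The cause was not tested. Low counts outside G564E, 6 to 24 reads per library for Bra022587 and 9 to 44 for Bra008025, are 1 limit on the precision of their folds. Their standard errors for AtPHYB minus NT also depended on the G564E libraries. For Bra022587 the error was 0.88, 0.36 without G564E replicate 1 and 0.90 without replicate 2. For Bra008025 it was 1.05, 0.31 without G564E replicate 3 and 1.09 without replicate 1.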

Other observations

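The 43 further genes that met the rule without G564E replicate 1 had that library as their lowest in G564E in 43 of 43 cases. The way they were found largely fixes this: only 13 of them had a mean below 2000 over all 3 G564E libraries. The same choice shapes the medians that follow, and members had to reach a ratio of 4 in every G564E library. Nothing is read from these medians. Their values in replicate 1 were a median of 2.59 times the highest AtPHYB or NT library, with a range of 0.266 to 14.7, and at or below it in 3 genes. In replicates 2 and 3 the medians were 8.06 and 8.43 times. Among the 10 members these medians were 4.94 times in replicate 1, 13.6 in replicate 2 and 11.0 in replicate 3.

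A further 22 genes with a G564E mean N of 1000 to 2000 met the other conditions. Replicate 1 was the lowest G564E library in 16 of them and the highest in 5, against 8 and 0 of the 10 members. The ratio between their highest and lowest G564E libraries had a median of 2.10, against 3.27 over the members.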
